A study of Mus musculus with 28 samples.

Results

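The insulin-like growth factor (IGF) axis of O9-1 cells was described through 9 genes: the ligand Igf1, the receptors Igf1r and Insr, and the binding proteins Igfbp2, Igfbp3, Igfbp4, Igfbp5, Igfbp6 and Igfbp7. The genes were chosen by symbol, and all 9 were found among the 54429 genes of the deposited count table. O9-1 is a mouse line of cranial neural crest cells, the embryonic cells that form much of the skull, face and palate, and per the design the study asked how well these cells differentiate at low oxygen. RNA was sequenced from 28 libraries in 8 groups, of which the 4 normoxic groups (21% O2) held 4 libraries apiece and the 4 hypoxic groups (0.5% O2) held 3. In either oxygen, cells were kept proliferating or were driven towards chondrocytes, osteoblasts or smooth muscle.

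Per the labels, proliferating cells grew in medium conditioned by STO feeder cells with 15% fetal calf serum, 25 ng/ml bFGF and 5 ng/ml LIF. Osteoblast cultures spent 10 days in a medium with 10% serum, 0.1 µM dexamethasone, 100 ng/ml BMP-2 and beta-glycerophosphate. Chondrocyte cultures spent 3 days in that medium and then 7 days as micromasses on matrigel, in a medium with 5% serum, 0.1 µM dexamethasone, 10 ng/ml TGF-beta3, 50 ng/ml BMP-2 and a supplement of insulin, transferrin and selenium. Smooth muscle cultures spent 3 days in DMEM with 10% serum. The normoxic and hypoxic groups of a culture type had the same medium and, for the differentiated cultures, the same time. No culture time was taken from the labels for proliferating cells. Culture types differed in medium, time and format at once, so that these cannot be told apart in a comparison between culture types. All libraries came from the same cell line, and the labels do not say whether replicates were separate cultures, so p-values measure only the spread between these libraries. In such bulk samples, fewer cells of a type and less RNA per cell cannot be told apart.

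IGF1 and IGF2 are secreted peptides that signal through the receptor tyrosine kinase IGF1R, and insulin signals through the related INSR. The high-affinity IGF binding proteins hold the ligands in the fluid and matrix around cells, where proteases such as PAPP-A release them again. In the growth plate and in bone the axis is known for its part in chondrocyte enlargement and osteoblast activity, and IGFBP5 is abundant in bone matrix. IGFBP7 binds IGFs weakly and is usually set apart from the other binding proteins.

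Library totals lay between 19869271 and 64693346 counts, the highest in a normoxic proliferating library and the lowest in the hypoxic smooth muscle group, at 19869271 to 25032622. Levels are given as counts per 1000000 scaled counts (CPM, TMM scaling over all 28 libraries) with the SD over libraries. The hypoxic smooth muscle libraries had 12.4% ± 0.849 (SD, n = 3) of their counts in mt-Rnr1 and mt-Rnr2, which encode mitochondrial ribosomal RNA, against at most 0.0889% in any other library, and a mean scaling factor of 0.533. Scaling by library totals alone moved the median log2 change of all genes to -1.49 in hypoxic against normoxic smooth muscle cultures and to -1.35 in hypoxic smooth muscle against hypoxic proliferating cultures. The same change of scaling gave medians of -0.35 in both chondrocyte against proliferating comparisons, and of -0.23 in the hypoxic osteoblast against proliferating comparison. Changes below are relative to TMM scaling, and a direction of the 9 genes that the other scaling turned is named beside its value.

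The labels were compared with marker genes. All 10 of 10 hypoxia response genes, such as Vegfa and Slc2a1, were higher at 0.5% O2 in proliferating, osteoblast and smooth muscle cultures, and 9 of 10 were in chondrocyte cultures. At 21% O2, 9 of the 10 were also higher in chondrocyte than in proliferating cultures, Vegfa at 225 against 60.7 CPM. The 5 chondrocyte markers summed to 2817 to 8323 CPM in normoxic chondrocyte libraries, to 847 to 1267 CPM in hypoxic ones and to 99.8 to 140 CPM in normoxic proliferating ones. Of the 4 tested between the oxygen levels in chondrocyte cultures, 3 were lower at 0.5% O2: Col2a1, the type II collagen gene of cartilage, at 275 against 3490 CPM, Acan at 625 against 1958 CPM and Col9a1 at 0.144 against 35.3 CPM. The 4 smooth muscle markers, led by Acta2, summed to 3432 to 3844 CPM in normoxic smooth muscle libraries, whereas they summed to 27.8 to 40.9 CPM in hypoxic smooth muscle libraries and to 36.6 to 43.8 CPM in hypoxic proliferating ones. They did not set normoxic smooth muscle apart from the other differentiated cultures, since they summed to 3103 to 4749 CPM in normoxic osteoblast, 1925 to 2290 CPM in normoxic chondrocyte, 1723 to 2031 CPM in hypoxic osteoblast and 1698 to 2088 CPM in hypoxic chondrocyte libraries. The hypoxic smooth muscle label was therefore not borne out by these markers, and below it names the culture condition. The osteoblast marker Ibsp, a bone matrix protein gene, reached 1.15 CPM in normoxic osteoblast cultures and 1169 CPM in normoxic chondrocyte cultures, which goes against a label of mature osteoblasts. In hypoxic osteoblast cultures it reached 70.1 CPM, and the 5 osteoblast markers summed to 368 to 398 CPM there against 63.5 to 148 CPM in normoxic ones. Of the 4 tested between those groups, Ibsp and Runx2 were higher at 0.5% O2 and Sp7 (97.4 against 12.3 CPM, adjusted p = 0.131) and Alpl (75.2 against 11.5 CPM, adjusted p = 0.117) were not called. The normoxic means of Alpl and Sp7 rest largely on replicate 4, with Alpl at 40.6 CPM there and at 1.41 to 2.56 CPM in replicates 1 to 3, and Sp7 between 0.679 and 46.0 CPM. The 5 osteoblast markers summed to 1053 to 2533 CPM in normoxic and 784 to 1271 CPM in hypoxic chondrocyte libraries, above every osteoblast library. Of the 5 neural crest markers, Twist1 (89.4 CPM), Tfap2a (31.8 CPM), Ets1 (82.9 CPM) and Nr2f1 (141 CPM) were present in normoxic proliferating cells, while Sox10 had 1 count in all 28 libraries together. The hepatocyte genes Alb and Ttr had 0 counts, and the summed adipocyte, endothelial, epithelial and blood cell lists stayed at or below 64.0 CPM in every library. Within them some genes moved with oxygen: the blood cell list's Cd68 stood at 34.0 CPM in hypoxic and 0.661 CPM in normoxic smooth muscle cultures, and the adipocyte list's Pparg and Fabp4 at 36.4 and 21.2 CPM in hypoxic and 5.47 and 3.79 CPM in normoxic osteoblast cultures. Lpl of the same list went the other way, at 0.100 CPM in hypoxic and 1.65 CPM in normoxic osteoblast cultures and at 1.65 and 57.1 CPM in smooth muscle cultures. The part of these markers in the oxygen differences of the 9 genes was not tested.

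Replicate 4 of the normoxic osteoblast group stood apart from replicates 1 to 3. Its chondrocyte markers summed to 1466 CPM, against 181 to 198 CPM in the other 3 libraries, with Col2a1 at 786 CPM against 36.0 to 44.1 CPM. Its osteoblast markers summed to 148 CPM against 63.5 to 73.7 CPM. Without that library the changes of normoxic osteoblast against proliferating cultures were 9.17 for Igf1, 1.19 for Igf1r, 1.59 for Insr, 3.06 for Igfbp3, 1.299 for Igfbp4, -0.09 for Igfbp6 and 6.38 for Igfbp7, with the same 6 of 7 called. Further values of the 9 genes without it stand beside the results below, and the part of the marker genes in them was not tested.

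On the mouse build GRCm38 (mm10), Igf1 lies on chromosome 10 at 87858265 to 87937042 on the plus strand, Igf1r on chromosome 7 at 67952827 to 68233668 on the plus strand, and Insr on chromosome 8 at 3122061 to 3279617 on the minus strand. Igfbp2 (chromosome 1, 72824503 to 72852474, plus strand) and Igfbp5 (chromosome 1, 72857932 to 72874884, minus strand) face each other across 5457 bases that hold no other protein-coding gene. Igfbp3 (chromosome 11, 7206086 to 7213923, minus strand) lies 3539 bases from Igfbp1, which had 0 counts in all 28 libraries. Igfbp4 is on chromosome 11 at 99041244 to 99054392 (plus strand), Igfbp6 on chromosome 15 at 102144362 to 102149511 (plus strand) and Igfbp7 on chromosome 5 at 77349240 to 77408041 (minus strand). Exon lengths differ widely, from 1.112 kb for Igfbp6 and 1.209 kb for Igfbp7 to 16.791 kb for Igf1r, so levels of different genes are compared only per kb of exon. Of the exon bases of Igfbp7, 85 (7.03%) overlap Polr2b on the opposite strand, and since the strand setting of the counting is not given in the sources used here, reads from those bases cannot be told apart.

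The promoters of Igfbp3 and Igfbp6 are shown because these genes had the largest oxygen difference in proliferating cells among the 6 genes tested there and the only oxygen difference in the same direction in all 4 culture types. Each is the RefSeq sequence of the 250 bases before the annotated start site on GRCm38.p6, read 5′ to 3′ on the gene's strand, with capitals at each match to ACGTG or GCGTG on either strand (CACGT or CACGC as printed), the core letters of the sites that hypoxia-inducible factors are known to bind. The Igfbp3 stretch is chr11:7213924-7214173 (minus strand) and the Igfbp6 stretch is chr15:102143936-102144185 (plus strand).
Igfbp3: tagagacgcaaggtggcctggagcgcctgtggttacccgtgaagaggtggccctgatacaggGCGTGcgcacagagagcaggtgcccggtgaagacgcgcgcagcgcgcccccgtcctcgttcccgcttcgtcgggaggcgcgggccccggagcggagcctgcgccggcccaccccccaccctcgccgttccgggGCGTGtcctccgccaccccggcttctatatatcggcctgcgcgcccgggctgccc
Igfbp6: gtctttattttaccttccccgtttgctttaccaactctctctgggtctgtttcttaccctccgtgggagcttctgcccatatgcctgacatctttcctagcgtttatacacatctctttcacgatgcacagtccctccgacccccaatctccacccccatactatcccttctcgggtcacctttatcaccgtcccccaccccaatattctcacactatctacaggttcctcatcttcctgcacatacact
Igfbp3 held 2 matches, starting 188 and 55 bases before the start site, and Igfbp6 held 0. For Igfbp6 the RefSeq start site lies before the gene start of 102144362 given above. Its window of 300 bases ends at 102144235, so the bases between were not searched. Among all 32851 RefSeq promoter windows of 300 bases (250 before and 50 after the start), 43.8% held at least 1 match and 20.6% at least 2. Over the same windows, Igf1 held 1 match, Igf1r 3, Igfbp7 2, and Igfbp4 and Igfbp5 0. The upstream window of Igfbp2 held 4, of which a CACGT and an ACGTG overlap, and 3.86% of all windows held at least 4. A match is a run of letters and not a measured site.

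**Figure D1:**
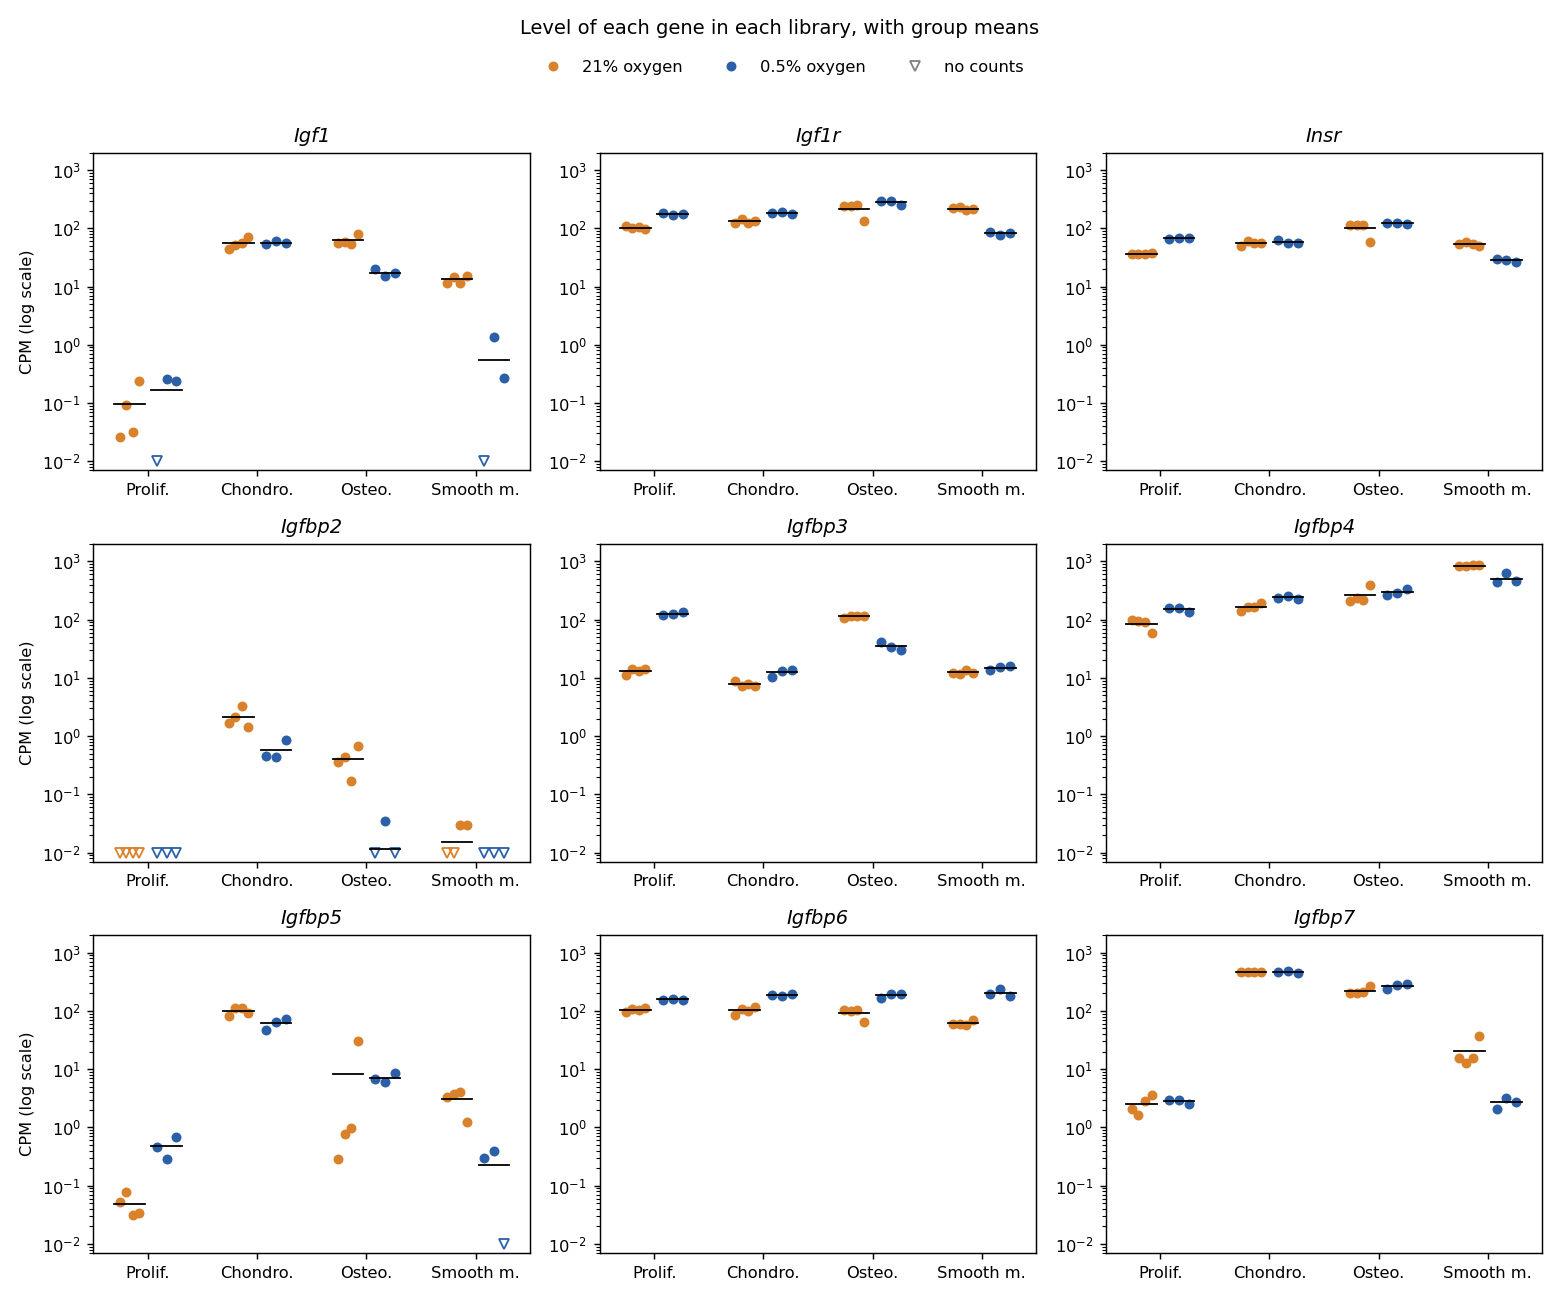
Level of each of the 9 genes in each library, in CPM on a log axis, by culture type, with 21% oxygen in orange and 0.5% oxygen in blue; black lines are group means and open triangles are libraries without counts. Igfbp3 at 0.5% oxygen lies at 120 to 134 CPM in proliferating cells, and Igfbp5 in normoxic osteoblast cultures has 3 libraries below 1 CPM and 1 at 31.0 CPM.

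Igf1, the ligand, was near absent from proliferating cells and abundant in chondrocyte and osteoblast cultures. The 4 normoxic proliferating libraries held 1, 7, 1 and 7 counts of Igf1, a mean of 0.0973 ± 0.0996 CPM (SD, n = 4), and the 3 hypoxic ones held 0, 7 and 7 counts. Normoxic chondrocyte libraries stood at 44.4, 51.3, 56.1 and 70.7 CPM, and hypoxic ones at 54.1, 59.6 and 56.9 CPM. Every chondrocyte library was thus far above every proliferating library. The rise from the proliferating state was 9.23 on the log2 scale in normoxic chondrocyte cultures (SE 0.30, adjusted p = 5.30e-10) and 8.43 in hypoxic ones (SE 0.27, adjusted p = 4.83e-10). Normoxic osteoblast libraries reached 56.0, 57.9, 54.3 and 81.1 CPM, a rise of 9.36 (SE 0.33, adjusted p = 9.83e-09), and normoxic smooth muscle libraries reached 13.4 ± 2.07 CPM (SD, n = 4), a rise of 7.12 (SE 0.29, adjusted p = 3.23e-12).

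Low oxygen was accompanied by lower Igf1 in osteoblast and smooth muscle cultures but not in chondrocyte cultures. Hypoxic osteoblast libraries stood at 19.9, 15.2 and 17.1 CPM, all below the lowest normoxic osteoblast library. The difference was -1.84 (SE 0.17, adjusted p = 2.61e-05), and -1.68 without replicate 4 of the normoxic group. Hypoxic smooth muscle libraries held 0, 14 and 3 counts, a mean of 0.543 ± 0.721 CPM (SD, n = 3), and were 24.4-fold lower than normoxic ones (log2 -4.61, SE 0.49, adjusted p = 6.23e-07). In chondrocyte cultures the oxygen difference was 0.02 (SE 0.13, adjusted p = 0.953), and -0.057 under scaling by library totals alone. In proliferating cells Igf1 did not pass the filter on low counts and was not tested. In the order of group means, normoxic osteoblast, hypoxic chondrocyte and normoxic chondrocyte cultures overlapped at the top, hypoxic osteoblast and normoxic smooth muscle cultures overlapped below them, and the remaining 3 groups overlapped at the bottom.

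The receptors varied far less between groups than the ligand. Igf1r, which encodes the IGF1 receptor, ranged from 82.8 to 283 CPM over the group means, a 3.42-fold span, and Insr, which encodes the insulin receptor, ranged from 28.2 to 121 CPM, a 4.30-fold span. Both means were lowest in hypoxic smooth muscle and highest in hypoxic osteoblast cultures.

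Igf1r stood at 108, 102, 106 and 96.3 CPM in normoxic proliferating libraries and at 181, 169 and 173 CPM in hypoxic ones, with no overlap. The oxygen difference in proliferating cells was 0.75 (SE 0.05, adjusted p = 3.08e-08). Insr rose there by 0.88 (SE 0.05, adjusted p = 6.90e-09), from 36.5 ± 0.947 (SD, n = 4) to 67.1 ± 0.682 CPM (SD, n = 3). In chondrocyte cultures Igf1r was higher at low oxygen by 0.45 (SE 0.07, adjusted p = 0.00104), while Insr differed by 0.06 (SE 0.08, adjusted p = 0.661), or by -0.013 under scaling by library totals alone. Both receptors were lower at low oxygen in smooth muscle cultures, Igf1r by -1.26 (SE 0.08, adjusted p = 1.96e-09) and Insr by -0.79 (SE 0.10, adjusted p = 3.92e-06).

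At 21% O2 both receptors were higher in all 3 differentiated culture types than in proliferating cells. Igf1r rose by 0.39 (SE 0.07, adjusted p = 0.000184) in chondrocyte cultures, by 1.06 (SE 0.17, adjusted p = 0.000329) in osteoblast cultures and by 1.05 (SE 0.06, adjusted p = 1.34e-10) in smooth muscle cultures. The chondrocyte value of Igf1r moved to 0.04 (adjusted p = 0.584) when libraries were scaled by their totals alone. Insr rose by 0.63 (SE 0.07, adjusted p = 4.64e-06), 1.44 (SE 0.20, adjusted p = 9.04e-05) and 0.53 (SE 0.06, adjusted p = 1.38e-06) in the same order.

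At 0.5% O2 the pattern of the receptors depended on the culture type. Against hypoxic proliferating cells, osteoblast cultures were higher in Igf1r by 0.70 (SE 0.08, adjusted p = 6.63e-07) and in Insr by 0.85 (SE 0.07, adjusted p = 1.76e-08), and smooth muscle cultures were lower by -0.90 (SE 0.08, adjusted p = 9.77e-07) and -1.08 (SE 0.09, adjusted p = 1.13e-06). In chondrocyte cultures Igf1r differed by 0.07 (SE 0.06, adjusted p = 0.320), a value that scaling by library totals alone turned to -0.26 (adjusted p = 0.00114), and Insr by -0.20 (SE 0.07, adjusted p = 0.0191). That call of Insr was lost when hypoxic chondrocyte replicate 2 (adjusted p = 0.0651) or replicate 3 (adjusted p = 0.0909) or hypoxic proliferating replicate 2 (adjusted p = 0.0598) was left out, and with all 28 libraries in 1 fit (adjusted p = 0.273).

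The normoxic osteoblast group was uneven for both receptors. Igf1r stood at 237, 245 and 248 CPM in replicates 1 to 3 and at 134 CPM in replicate 4, and Insr at 113, 113, 115 and 57.3 CPM. With all 4 libraries the oxygen difference of Igf1r in osteoblast cultures was 0.40 (SE 0.20, adjusted p = 0.118), and without replicate 4 it was 0.22 (SE 0.07, adjusted p = 0.0133). Insr differed by 0.28 (SE 0.22, adjusted p = 0.301), and by 0.09 without replicate 4 (adjusted p = 0.182).

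Per kb of exon, Igf1r exceeded Insr in every group. The ratio of Igf1r to Insr, which library scaling does not touch, was 2.32 ± 0.171 (SD, n = 4) in normoxic proliferating cells, 1.79 ± 0.0877 (SD, n = 4) in normoxic osteoblast cultures and 3.33 ± 0.158 (SD, n = 4) in normoxic smooth muscle cultures. It lay at 2.58 ± 0.186 (SD, n = 3) in hypoxic chondrocyte cultures and at 1.96 ± 0.0914 (SD, n = 4) in normoxic ones, with no overlap between the libraries. The hypoxic ratio in smooth muscle cultures, 2.41 ± 0.209 (SD, n = 3), lay below every normoxic library. In proliferating (2.13 ± 0.0907, SD, n = 3) and osteoblast cultures (1.91 ± 0.119, SD, n = 3) the hypoxic libraries overlapped the normoxic ones.

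Igfbp3, which encodes the main carrier of IGFs in serum, showed the largest oxygen difference in proliferating cells among the 6 genes tested there and opposite directions in different culture types. It stood at 11.3, 14.2, 12.9 and 13.99 CPM in normoxic proliferating libraries and at 120, 125 and 134 CPM in hypoxic ones. Every hypoxic library was thus several times above every normoxic library. The difference was 3.26 (SE 0.07, adjusted p = 3.57e-13), a 9.59-fold rise. In osteoblast cultures the order was turned: the normoxic libraries stood at 109, 115, 116 and 117 CPM and the hypoxic ones at 41.6, 34.4 and 29.9 CPM, a difference of -1.69 (SE 0.12, adjusted p = 4.65e-06), and -1.68 without normoxic replicate 4.

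In chondrocyte cultures Igfbp3 was low at both oxygen levels, at 7.83 ± 0.815 CPM (SD, n = 4) and 12.4 ± 1.74 CPM (SD, n = 3), and was higher at low oxygen by 0.65 (SE 0.14, adjusted p = 0.00666). In smooth muscle cultures it stood at 12.5 ± 0.80 CPM (SD, n = 4) and 14.9 ± 1.20 CPM (SD, n = 3), with libraries that overlapped, and was called higher by 0.39 (SE 0.14, adjusted p = 0.0198). Scaling by library totals alone turned that smooth muscle value to -0.98, and leaving out normoxic replicate 1 (adjusted p = 0.0546), normoxic replicate 2 (adjusted p = 0.0607) or hypoxic replicate 3 (adjusted p = 0.0671) ended the call, as did testing without a filter on low counts (adjusted p = 0.166).

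Seen as differentiation changes, Igfbp3 rose in normoxic osteoblast cultures by 3.11 (SE 0.08, adjusted p = 1.53e-09) and fell in hypoxic ones by 1.84 (SE 0.10, adjusted p = 4.08e-10). It fell in chondrocyte cultures, by 0.71 at 21% O2 (SE 0.11, adjusted p = 9.33e-05) and by 3.35 at 0.5% O2 (SE 0.10, adjusted p = 1.02e-11). In smooth muscle cultures the change was -0.10 (SE 0.10, adjusted p = 0.353) at 21% O2 and -2.91 (SE 0.10, adjusted p = 5.50e-10) at 0.5% O2. The highest 2 group means of Igfbp3 were hypoxic proliferating and normoxic osteoblast cultures, whose libraries did not overlap.

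Igfbp6, whose product prefers IGF2 over IGF1, was higher at low oxygen in all 4 culture types. Normoxic proliferating libraries stood at 94.98, 106, 102 and 114 CPM and hypoxic ones at 155, 163 and 154 CPM, a difference of 0.59 (SE 0.06, adjusted p = 8.50e-07). The difference was 0.83 in chondrocyte cultures (SE 0.10, adjusted p = 0.000137), with 103 ± 13.9 CPM (SD, n = 4) against 184 ± 7.71 CPM (SD, n = 3). It was 1.02 in osteoblast cultures (SE 0.16, adjusted p = 0.000638), and 0.88 without normoxic replicate 4, which stood at 64.2 CPM against 100 to 103 CPM in replicates 1 to 3. In smooth muscle cultures it was 1.87 (SE 0.10, adjusted p = 1.90e-10), from 59.7, 60.1, 57.0 and 68.9 CPM to 194, 234 and 181 CPM. Normoxic and hypoxic libraries of Igfbp6 did not overlap in any culture type, and all 4 directions held under every scaling tried, the smooth muscle value falling to 0.49 under scaling by library totals alone.

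Igfbp6 was also compared across culture types at one oxygen level. At 21% O2 it fell by 0.80 in smooth muscle cultures (SE 0.07, adjusted p = 2.34e-08), and its change was 0.0044 (adjusted p = 0.968) in chondrocyte and -0.19 (adjusted p = 0.242) in osteoblast cultures. Scaling by library totals alone gave -0.35 (adjusted p = 0.00304) and -0.34 (adjusted p = 0.0418) for the last 2, both called lower. At 0.5% O2 it was called higher than in proliferating cells in chondrocyte (0.23, adjusted p = 0.00354), osteoblast (0.25, adjusted p = 0.00921) and smooth muscle cultures (0.54, adjusted p = 0.000386). That scaling turned the hypoxic chondrocyte value to -0.10 and the smooth muscle value to -0.74 and ended the osteoblast call (0.02, adjusted p = 0.853). With all 28 libraries in 1 fit the hypoxic chondrocyte (adjusted p = 0.123) and osteoblast (adjusted p = 0.0987) calls ended as well.

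Igfbp4, which encodes a mostly inhibitory binding protein that PAPP-A cleaves, was highest in smooth muscle cultures. It stood at 839, 831, 856 and 869 CPM in normoxic smooth muscle libraries and at 97.2, 95.1, 90.5 and 59.2 CPM in normoxic proliferating ones. The rise was 3.28 (SE 0.14, adjusted p = 3.85e-09). It also rose in normoxic chondrocyte (0.98, SE 0.15, adjusted p = 0.000223) and osteoblast cultures (1.60, SE 0.23, adjusted p = 0.000131), and at 0.5% O2 in all 3 culture types, by 0.68 (adjusted p = 3.44e-06), 0.98 (adjusted p = 7.93e-08) and 1.93 (adjusted p = 1.26e-07) in the order chondrocyte, osteoblast and smooth muscle.

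Low oxygen was accompanied by more Igfbp4 in proliferating (0.80, SE 0.18, adjusted p = 0.00583) and chondrocyte cultures (0.52, SE 0.09, adjusted p = 0.00238) and by less in smooth muscle cultures (-0.61, SE 0.11, adjusted p = 0.000109). The hypoxic smooth muscle libraries stood at 436, 624 and 459 CPM, all below the normoxic ones. In normoxic osteoblast cultures Igfbp4 was 208, 231 and 218 CPM in replicates 1 to 3 and 385 CPM in replicate 4. The oxygen difference there was 0.19 (SE 0.22, adjusted p = 0.494) with all libraries, and 0.44 (SE 0.08, adjusted p = 0.000255) without replicate 4.

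Igfbp5 was near absent from proliferating cells and highest in chondrocyte cultures. Its group means ran from 0.0491 CPM in normoxic proliferating cells, where the 4 libraries held 10 counts together, to 99.5 ± 15.4 CPM (SD, n = 4) in normoxic chondrocyte cultures. The rise in normoxic chondrocyte cultures was 10.73 (SE 0.21, adjusted p = 2.60e-12), with libraries at 81.9, 112, 113 and 91.2 CPM. In hypoxic chondrocyte libraries it stood at 46.4, 63.4 and 73.1 CPM. The oxygen difference of -0.72 (SE 0.18, adjusted p = 0.0220) was not called when normoxic replicate 2 (adjusted p = 0.0565), normoxic replicate 3 (adjusted p = 0.0539) or hypoxic replicate 2 (adjusted p = 0.0603) was left out, without a filter (adjusted p = 0.0922) or with all 28 libraries in 1 fit (adjusted p = 0.579). The chondrocyte markers Col2a1, Acan and Col9a1 were lower in the same libraries, as given above.

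In osteoblast cultures Igfbp5 depended on a single library. Normoxic replicates 1 to 3 stood at 0.283, 0.759 and 0.994 CPM and replicate 4 at 31.0 CPM, and the hypoxic libraries lay between them at 6.88, 5.90 and 8.60 CPM. With all libraries the oxygen difference was -0.22 (SE 1.52, adjusted p = 0.915), and without replicate 4 it was 3.39 (SE 0.31, adjusted p = 8.10e-07). In hypoxic osteoblast cultures Igfbp5 was above hypoxic proliferating cells by 3.87 (SE 0.28, adjusted p = 7.67e-09). In smooth muscle cultures it stood at 3.11 ± 1.29 CPM (SD, n = 4) at 21% O2, 5.70 above proliferating cells (SE 0.48, adjusted p = 2.10e-08), and at 4, 4 and 0 counts at 0.5% O2, a difference of -3.61 (SE 0.67, adjusted p = 0.000170) that was not called with all 28 libraries in 1 fit (adjusted p = 0.1003). In proliferating cells Igfbp5 did not pass the filter on low counts for the oxygen comparison, with 10 counts in 4 normoxic libraries and 42 counts in 3 hypoxic ones. Its means there were 0.0491 and 0.480 CPM. Without a filter 6 of the 9 genes were called higher in that comparison, and with all 28 libraries in 1 fit 5 were.

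Igfbp2, the neighbour of Igfbp5, had few reads and most of them in chondrocyte cultures. Its counts in the 4 normoxic chondrocyte libraries were 55, 53, 95 and 39, and in the 3 hypoxic ones 14, 11 and 26. All 7 proliferating libraries had 0 counts, which allows a level of up to 0.0171 CPM at 21% O2 and 0.0345 CPM at 0.5% O2 (3 counts over the libraries of a group, for counting error only). By counts summed over the libraries of each group, 242 at 21% O2 and 51 at 0.5% O2, normoxic chondrocyte cultures were therefore at least 125-fold higher than proliferating cells (adjusted p = 3.17e-06), and hypoxic ones at least 17.1-fold higher (adjusted p = 0.000209).

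Low oxygen was accompanied by less Igfbp2. In chondrocyte cultures it fell by 1.88 (SE 0.40, adjusted p = 0.00597), from 2.15 ± 0.846 CPM (SD, n = 4) to 0.583 ± 0.242 CPM (SD, n = 3). The osteoblast cultures held 47 counts in 4 normoxic libraries and 1 count in 3 hypoxic ones, a ratio of 34.3 with a 95% counting interval of 5.86 to 1384 (adjusted p = 0.00319). Replicates 1 to 4 of the normoxic group held 10, 11, 5 and 21 of the 47 counts, and Igfbp2 did not pass the filter, so that the call ended, without normoxic replicate 1, 2 or 4. The 7 smooth muscle libraries held 2 counts in all.

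Igfbp7 was high in chondrocyte and osteoblast cultures at either oxygen level. Normoxic chondrocyte libraries stood at 464, 465, 471 and 469 CPM and hypoxic ones at 471, 484 and 453 CPM, against 2.56 ± 0.879 CPM (SD, n = 4) in normoxic and 2.82 ± 0.262 CPM (SD, n = 3) in hypoxic proliferating cells. The rise in chondrocyte cultures was 7.62 (SE 0.20, adjusted p = 3.80e-10) at 21% O2 and 7.38 (SE 0.09, adjusted p = 3.52e-15) at 0.5% O2. In osteoblast cultures the rise was 6.47 (SE 0.25, adjusted p = 1.68e-08) and 6.56 (SE 0.11, adjusted p = 5.14e-16), to 201, 207, 207 and 267 CPM and to 235, 273 and 292 CPM.

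Smooth muscle cultures were the exception for Igfbp7. Normoxic libraries stood at 15.3, 12.5, 15.3 and 37.6 CPM, 3.00 above proliferating cells (SE 0.46, adjusted p = 0.000494), and hypoxic ones at 2.05, 3.21 and 2.77 CPM, a level that overlapped that of proliferating cells (0.09, SE 0.32, adjusted p = 0.807). Scaling by library totals alone turned that last value to -1.18 (adjusted p = 0.00424). The oxygen difference in smooth muscle cultures was -2.79 (SE 0.44, adjusted p = 0.000120), and limma-voom did not call it (-2.65, adjusted p = 0.0756). In proliferating (0.16, SE 0.26, adjusted p = 0.607), chondrocyte (-0.01, SE 0.06, adjusted p = 0.932) and osteoblast cultures (0.28, SE 0.12, adjusted p = 0.0836) no oxygen difference was called, and without normoxic osteoblast replicate 4 the last was 0.38 (adjusted p = 0.000519).

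**Figure D2:**
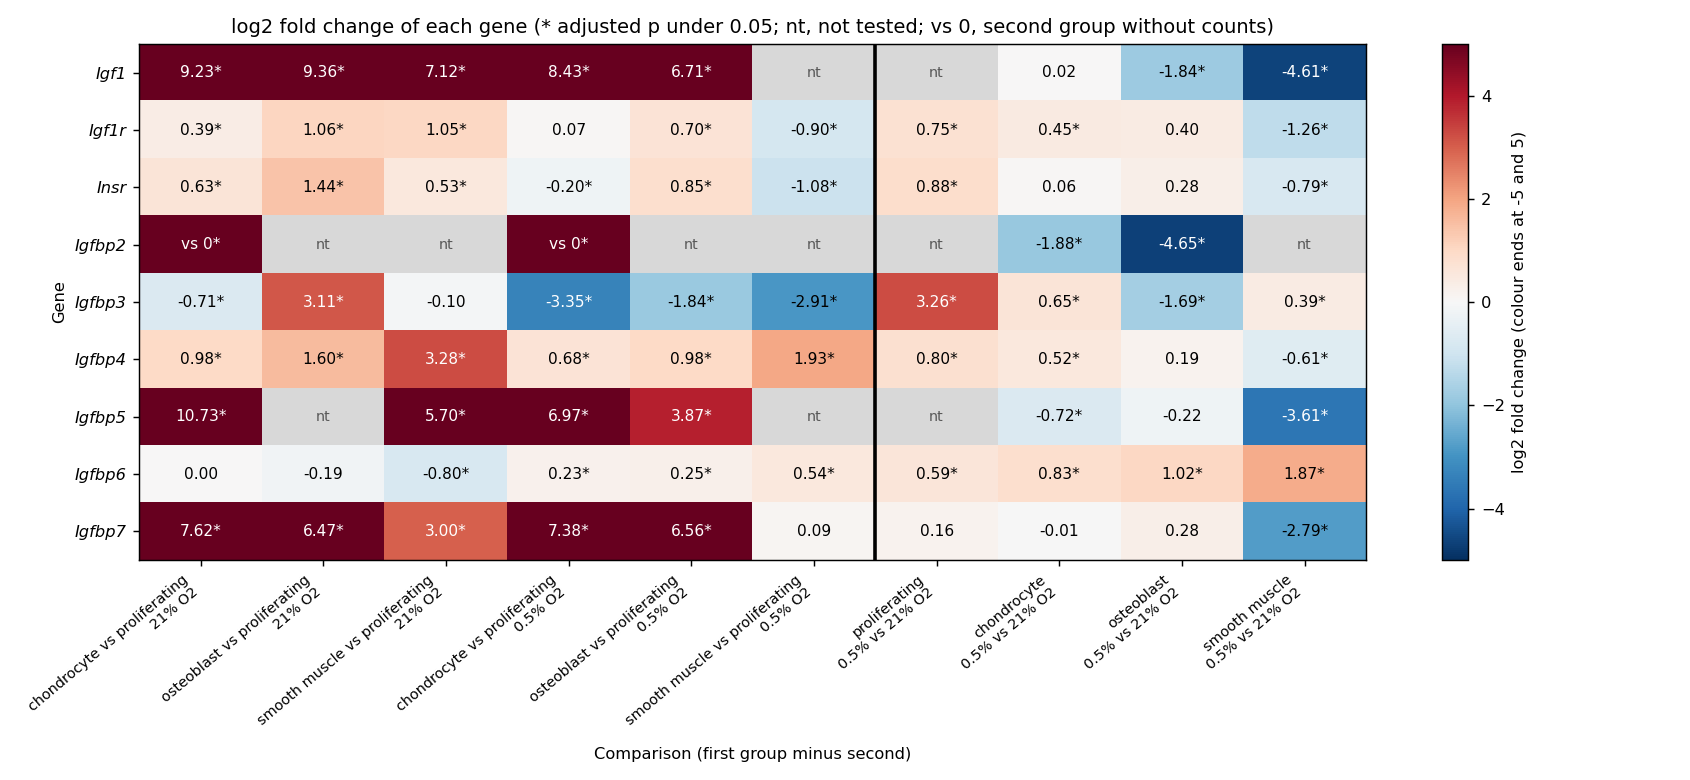
log2 fold change of each of the 9 genes (rows) in the 6 differentiation and 4 oxygen comparisons (columns, first group minus second), with red for higher and blue for lower; an asterisk marks adjusted p under 0.05, nt a gene that did not pass the filter on low counts, and "vs 0" a second group without counts. Igfbp6 is higher at 0.5% oxygen in all 4 culture types, and Igfbp3 is higher in 3, its smooth muscle value turning to -0.98 under scaling by library totals alone, and lower in osteoblast cultures.

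The counts of called genes stand beside the background of each comparison. In normoxic chondrocyte against proliferating cultures 7 of the 9 genes were higher and 1 lower, where 74.9% of all genes tested were called, 37.7% higher and 37.2% lower. In normoxic osteoblast cultures 6 of 7 tested were higher and 0 lower, against a background of 78.7%, made up of 40.9% higher and 37.8% lower. In normoxic smooth muscle cultures 6 of 8 were higher and 1 lower, against 79.7% (40.8% higher, 38.9% lower). At 0.5% O2, 6 of 9 were higher and 2 lower in chondrocyte cultures, against 69.5% (34.9% higher, 34.6% lower). In hypoxic osteoblast cultures 7 of 8 were higher and 1 lower, against 71.3% (36.2% higher, 35.1% lower), and in hypoxic smooth muscle cultures 2 of 6 were higher and 3 lower, against 70% (33.8% higher, 36.2% lower). With both directions added together the shares called lie near or not far above those of all genes, and comparisons at the same oxygen level share their proliferating libraries.

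Between the oxygen levels, 5 of 6 tested genes were higher and 0 lower in proliferating cells, where 65.4% of all genes tested were called, 33.1% higher and 32.3% lower. In chondrocyte cultures 4 of 9 were higher and 2 lower, against a background of 22.2% (10.4% higher, 11.8% lower), the lowest of the 4 oxygen comparisons. In osteoblast cultures 1 of 9 was higher and 3 were lower, against 54.3% (27% higher, 27.3% lower). For smooth muscle cultures 2 of 8 were higher and 6 lower, against 75.6% (35.4% higher, 40.2% lower). Without normoxic osteoblast replicate 4 the osteoblast count was 5 higher and 2 lower of 8 tested, Igfbp2 not passing the filter on low counts there, where 9376 of all 14295 genes tested were called. Scaling by library totals alone left the members' counts unchanged in proliferating, chondrocyte and osteoblast cultures and gave 1 higher and 7 lower in smooth muscle cultures. The median log2 change of the tested members was 0.78 in proliferating cells, 0.06 in chondrocyte, 0.19 in osteoblast and -1.03 in smooth muscle cultures, against 0.01, -0.0058, -0.03 and -0.12 over all genes tested.

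**Figure D3:**
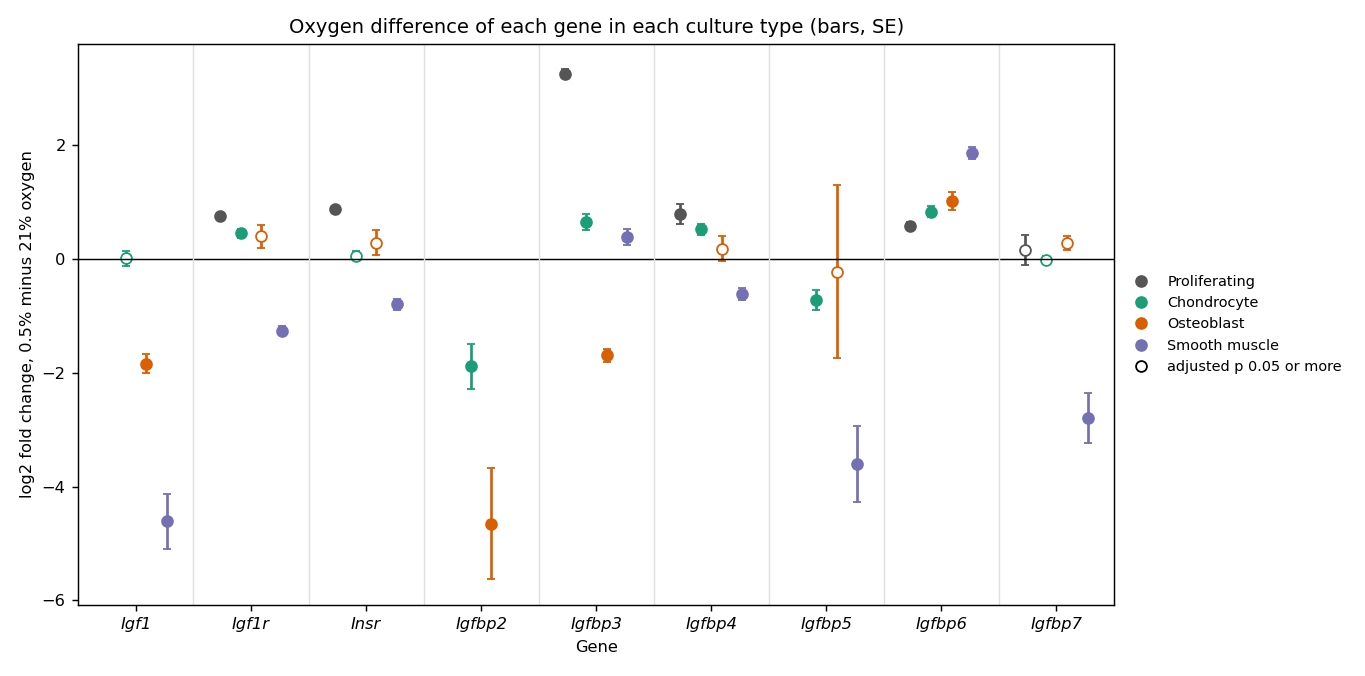
Oxygen difference (0.5% minus 21% oxygen, log2) of each gene in proliferating, chondrocyte, osteoblast and smooth muscle cultures; filled points have adjusted p under 0.05, open points do not, bars are SE, and genes that did not pass the filter on low counts have no point. The points of Igfbp3 run from 3.26 in proliferating cells to -1.69 in osteoblast cultures, and the osteoblast point of Igfbp2 rests on 1 count at 0.5% oxygen.

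Whether the oxygen difference of a differentiated culture departed from that of proliferating cells was tested with an interaction term for each culture type. The 3 terms share both proliferating groups. In the smooth muscle term 1 of 8 genes was higher and 7 were lower, where 70.4% of all genes tested were called, 34.9% higher and 35.5% lower. The departures of Igf1r (-1.97, SE 0.10, adjusted p = 4.96e-14), Insr (-1.63, SE 0.11, adjusted p = 9.51e-12) and Igfbp3 (-2.83, SE 0.14, adjusted p = 4.00e-14) were called lower. Igf1 (-5.36, adjusted p = 0.000866), Igfbp4 (-1.37, adjusted p = 3.48e-05), Igfbp5 (-6.61, adjusted p = 9.88e-07) and Igfbp7 (-2.93, adjusted p = 0.000199) were called lower as well, Igfbp5 not with all 28 libraries in 1 fit (adjusted p = 0.0738). Low counts limit the sizes for Igf1 and Igfbp5. In normoxic proliferating, hypoxic proliferating and hypoxic smooth muscle cultures, Igf1 had 16, 14 and 17 counts and Igfbp5 had 10, 42 and 8. Igfbp6 was the only gene called higher (1.32, SE 0.12, adjusted p = 1.94e-09), and scaling by library totals alone moved it to -0.02.

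In the chondrocyte term 0 of 9 genes were higher and 4 were lower, against a background of 43.5% (21.6% higher, 21.9% lower): Igfbp3 by -2.61 (SE 0.15, adjusted p = 6.62e-10), Insr by -0.80 (SE 0.10, adjusted p = 6.95e-06), Igfbp5 by -3.72 (SE 0.66, adjusted p = 0.000366) and Igf1r by -0.29 (SE 0.09, adjusted p = 0.0196). The Igfbp5 value rests on 10 counts in the normoxic and 42 in the hypoxic proliferating group. The Igf1r call was lost without hypoxic proliferating replicate 1 (adjusted p = 0.0566) or hypoxic chondrocyte replicate 3 (adjusted p = 0.0644), and those of Igf1r (adjusted p = 0.334) and Igfbp5 (adjusted p = 0.283) with all 28 libraries in 1 fit. Igfbp4 (-0.26, adjusted p = 0.353) and Igfbp6 (0.26, adjusted p = 0.0994) were not called, although Igfbp6 was without normoxic chondrocyte replicate 4 (0.33, adjusted p = 0.0217).

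In the osteoblast term 1 of 9 genes was higher and 2 were lower, against a background of 54.2% (28.9% higher, 25.3% lower). Igfbp3 departed by -4.91 (SE 0.15, adjusted p = 6.86e-12), the largest departure of this gene in the 3 terms. Igf1 was called at -2.59 (SE 0.88, adjusted p = 0.0231), resting on 16 and 14 counts in the proliferating groups, and lost the call without hypoxic proliferating replicate 2 (adjusted p = 0.135) or replicate 3 (adjusted p = 0.133), without a filter (adjusted p = 0.0606) and by limma-voom (adjusted p = 0.183). Igfbp6 was called at 0.48 (SE 0.18, adjusted p = 0.0346), a call that ended (adjusted p 0.0531 to 0.0782) without normoxic proliferating replicate 2, 3 or 4, hypoxic proliferating replicate 1 or 3, or hypoxic osteoblast replicate 2 or 3. The call of Igfbp6 also ended under scaling by library totals alone (0.36, adjusted p = 0.0980) and with at least 10 counts required in every library (0.42, adjusted p = 0.0543). Without normoxic osteoblast replicate 4 the values of Igfbp3, Igf1 and Igfbp6 were -4.89, -2.43 and 0.34, all still called, and Igf1r (-0.48, adjusted p = 0.000150) and Insr (-0.73, adjusted p = 4.05e-08) were called as well. Igfbp2 had 0 counts in both proliferating groups, so that its chondrocyte and osteoblast terms were not estimable and it is counted among the genes not called.

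Chondrocyte and osteoblast cultures, which both held Igf1 and Igfbp7, were also compared with each other. At 21% O2, 3 of 9 genes were higher in chondrocyte cultures and 4 lower, where 59.7% of all genes tested were called, 28.6% higher and 31.1% lower. At 0.5% O2, 4 were higher and 4 lower, against 57.6% (28.6% higher, 29% lower). Igfbp3 was lower in chondrocyte cultures by -3.86 (SE 0.09, adjusted p = 9.14e-09) at 21% O2 and by -1.5 (SE 0.15, adjusted p = 2.09e-06) at 0.5% O2. Igfbp7 was higher by 1.08 (SE 0.10, adjusted p = 1.18e-05) and 0.83 (SE 0.09, adjusted p = 6.60e-06). Igfbp6 was not called at either level (0.15, adjusted p = 0.435, and -0.0075, adjusted p = 0.950), and its normoxic value was -0.0071 under scaling by library totals alone.

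Igf1 did not differ between these cultures at 21% O2 by the test (-0.16, SE 0.17, adjusted p = 0.422) and was higher in chondrocyte cultures at 0.5% O2 by 1.72 (SE 0.11, adjusted p = 4.72e-08). Igf1r (-0.71, adjusted p = 0.00725, and -0.62, adjusted p = 6.25e-05) and Insr (-0.85, adjusted p = 0.00581, and -1.04, adjusted p = 3.98e-07) were lower in chondrocyte cultures at 21% and 0.5% O2. Igfbp4 was lower by -0.66 (adjusted p = 0.0174) and -0.29 (adjusted p = 0.0190), calls that ended without normoxic chondrocyte replicate 1 (adjusted p = 0.0591) and without hypoxic chondrocyte replicate 3 (adjusted p = 0.0912), the hypoxic one also with all 28 libraries in 1 fit (adjusted p = 0.216). Igfbp2 was higher at 21% O2 by 2.37 (SE 0.42, adjusted p = 0.000948). Without normoxic osteoblast replicate 4 the normoxic value of Igfbp4 was -0.41 (adjusted p = 0.00243) and that of Igf1 -0.01 (adjusted p = 0.949).

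Igfbp5 was higher in chondrocyte cultures by 3.57 (SE 1.21, adjusted p = 0.0336) at 21% O2 and by 3.11 (SE 0.19, adjusted p = 1.21e-07) at 0.5% O2. Without normoxic osteoblast replicate 4 the normoxic value was 7.19 (adjusted p = 7.64e-08). Leaving out any of the other 7 libraries of that comparison gave adjusted p between 0.0501 and 0.0667, and testing without a filter gave 0.0945.

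The make-up of the binding proteins was described as the share of each in the summed level of all 6, per kb of exon within a library, which library scaling does not change. The sum rose from 119.6 ± 4.94 CPM per kb (SD, n = 4) in normoxic proliferating cells to 536 ± 19.3 CPM per kb (SD, n = 4) in normoxic chondrocyte cultures, and was 218 ± 5.30 (SD, n = 3) and 623 ± 8.46 CPM per kb (SD, n = 3) in the matching hypoxic groups. Igfbp6 led in proliferating cells, with 78.5% ± 3.21 (SD, n = 4) at 21% O2 and 64.8% ± 0.569 (SD, n = 3) at 0.5% O2. Igfbp3 took 3.5% ± 0.214 (SD, n = 4) of the sum in normoxic and 18.5% ± 1.29 (SD, n = 3) in hypoxic proliferating cells.

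Igfbp7 led in chondrocyte cultures, with 72.1% ± 2.37 (SD, n = 4) at 21% O2 and 62.3% ± 1.35 (SD, n = 3) at 0.5% O2, and in osteoblast cultures, with 50.1% ± 2.58 (SD, n = 4) and 47.1% ± 0.628 (SD, n = 3). With Igfbp7 left out of the sum, Igfbp6 had the highest mean share in these 4 groups, with 61.5% ± 1.67 (SD, n = 4) and 70.7% ± 1.83 (SD, n = 3) in chondrocyte and 46.4% ± 10.47 (SD, n = 4) and 67.9% ± 1.45 (SD, n = 3) in osteoblast cultures. Single normoxic osteoblast libraries ranged from 30.7% to 52.9% for Igfbp6 and from 27.0% to 46.5% for Igfbp4, so those 2 ranges overlapped. Per kb, the leading gene of smooth muscle cultures changed with oxygen. Igfbp4 took 71.7% ± 3.20 (SD, n = 4) and Igfbp6 20.5% ± 0.733 (SD, n = 4) at 21% O2, whereas Igfbp4 took 37.5% ± 2.02 (SD, n = 3) and Igfbp6 60.1% ± 2.07 (SD, n = 3) at 0.5% O2. Igfbp6 took a larger share at 0.5% than at 21% O2 in chondrocyte, osteoblast and smooth muscle cultures, and a smaller one in proliferating cells, where the share of Igfbp3 grew. Igfbp2 stayed at or below 0.335% in every library. These shares depend on exon length: by counts not divided by length, Igfbp4 led in 4 of the 8 groups in place of 1, both smooth muscle groups among them (89.8% at 21% O2 and 69.4% at 0.5% O2, against 6.49% and 28.1% for Igfbp6).

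**Figure D4:**
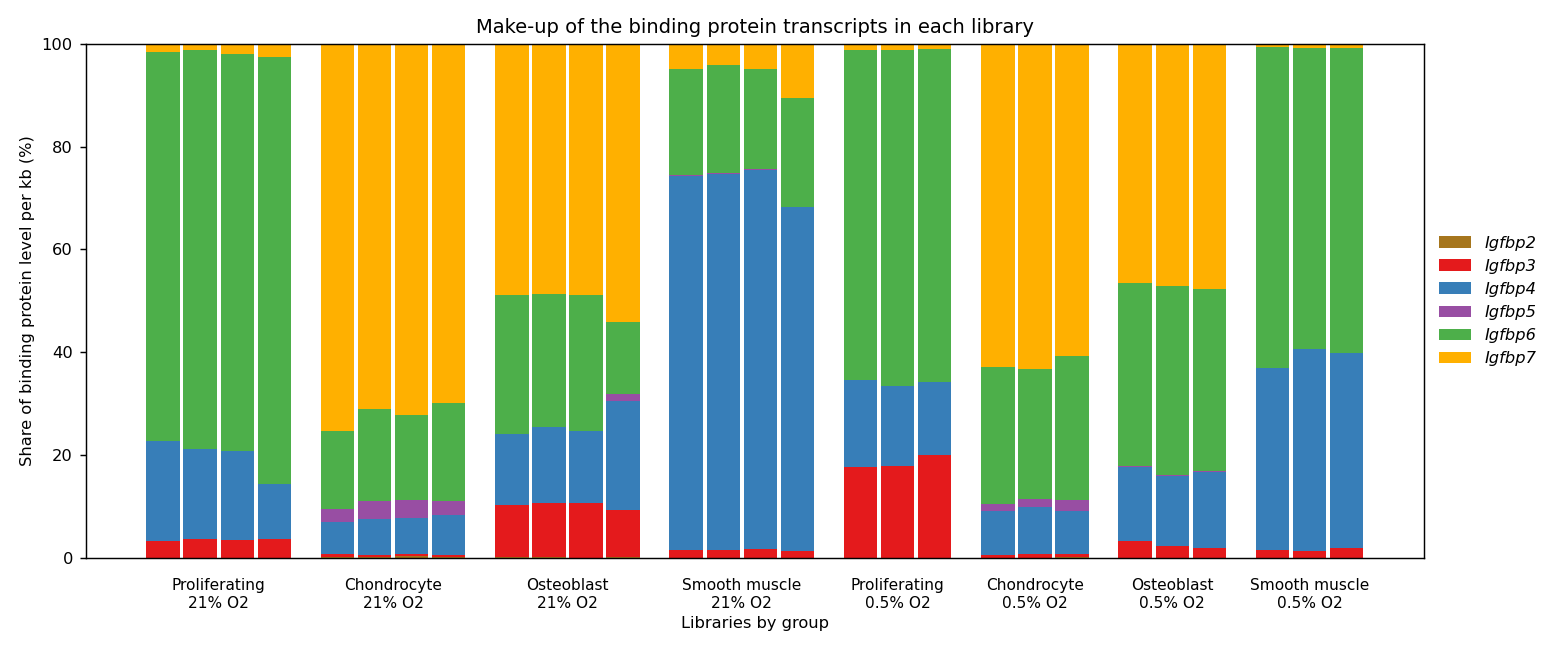
Share of each of the 6 binding proteins in their summed level per kb of exon (percent), with each bar a library, by group. Igfbp6 takes 78.5% in normoxic proliferating cells on average, Igfbp7 leads in the 4 chondrocyte and osteoblast groups, and Igfbp4 and Igfbp6 exchange the lead between the smooth muscle groups, which they do not by counts not divided by length (Igfbp4 69.4% at 0.5% oxygen).

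Other genes of the axis outside the cell were followed in a list of 21 ligands, carriers, receptors, proteases and protease inhibitors. Of these, Ins1 and Ins2, the insulin genes, had 0 counts, and Igfals, the partner of IGFBP3 in serum, had 106 counts in all 28 libraries together. Igf2 had 0 counts in normoxic proliferating cells, 127 in normoxic osteoblast cultures (adjusted p = 0.000384) and 153 in normoxic smooth muscle cultures (adjusted p = 5.05e-07). With low oxygen it fell by 3.44 in osteoblast cultures (SE 0.67, adjusted p = 0.00207), from 1.09 ± 0.769 CPM (SD, n = 4) to 0.0976 ± 0.0252 CPM (SD, n = 3), or 8 counts. The normoxic osteoblast libraries were thus uneven, and Igf2 was not tested without replicate 4 of that group. Pappa, which encodes the protease that cleaves IGFBP4, rose in normoxic chondrocyte cultures from 0.225 ± 0.0896 to 49.1 ± 4.58 CPM (SD, n = 4 each), by 7.83 (SE 0.17, adjusted p = 4.27e-12), and in hypoxic chondrocyte and osteoblast cultures by 8.10 (SE 0.26, adjusted p = 1.18e-09) and 7.32 (SE 0.25, adjusted p = 1.05e-12).

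The stanniocalcins, secreted inhibitors of PAPP-A, moved as well. Stc2 fell in normoxic chondrocyte cultures by 2.15 (SE 0.11, adjusted p = 4.20e-09) and in normoxic smooth muscle cultures by 2.74 (SE 0.09, adjusted p = 3.48e-13). Stc1 was higher at low oxygen in proliferating cells by 2.38 (SE 0.10, adjusted p = 3.98e-10), at 81.1 ± 5.49 (SD, n = 3) against 15.6 ± 2.30 CPM (SD, n = 4), and lower in hypoxic smooth muscle than in hypoxic proliferating cultures by 2.94 (SE 0.19, adjusted p = 8.43e-08). In the oxygen comparisons the list gave 8 higher and 1 lower of 10 tested in proliferating cells, 5 and 1 of 13 in chondrocyte, 6 and 4 of 14 in osteoblast, and 1 and 9 of 13 in smooth muscle cultures, with median log2 changes of 0.83, 0.37, 0.22 and -1.26. Over all genes tested, 65.4%, 22.2%, 54.3% and 75.6% were called in the same order, with medians of 0.01, -0.0058, -0.03 and -0.12. The protease gene Plau rose by 2.59 (SE 0.23, adjusted p = 3.45e-05) in hypoxic against normoxic osteoblast cultures, and the receptor gene Igf2r, whose product takes IGF2 into the cell, fell by 0.80 (SE 0.09, adjusted p = 8.54e-05) in chondrocyte cultures.

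Signal transduction inside the cell was followed in a list of 37 genes, of which 36 were tested in each comparison. At 21% O2, 22 were higher and 7 lower in chondrocyte, 19 and 8 in osteoblast, and 18 and 14 in smooth muscle cultures, where 74.9%, 78.7% and 79.7% of all genes tested were called. Ddit4, which encodes a stress-induced inhibitor of mTORC1, had the largest rise with low oxygen in proliferating (3.34, SE 0.13, adjusted p = 2.51e-08), osteoblast (3.09, SE 0.21, adjusted p = 7.79e-06) and smooth muscle cultures (4.58, SE 0.11, adjusted p = 1.71e-14). Grb14, which encodes an adaptor that dampens insulin receptor signalling, fell by 2.11 in normoxic osteoblast (SE 0.25, adjusted p = 2.99e-05) and by 2.03 in hypoxic chondrocyte cultures (SE 0.08, adjusted p = 6.99e-11).

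Foxo1, a transcription factor held back by this pathway, rose in normoxic osteoblast cultures by 3.64 (SE 0.16, adjusted p = 2.69e-08). Pik3r1, a regulatory subunit of PI3-kinase, rose in hypoxic osteoblast cultures by 3.61 (SE 0.09, adjusted p = 3.56e-14), from 38.1 ± 2.82 to 466 ± 47.9 CPM (SD, n = 3 each). With low oxygen 21 of 36 genes were higher and 12 lower in proliferating cells, 4 and 5 in chondrocyte, 13 and 9 in osteoblast, and 7 and 19 in smooth muscle cultures, with median log2 changes of 0.21, 0.05, 0.12 and -0.40. The shares of all genes called in these 4 comparisons were 65.4%, 22.2%, 54.3% and 75.6%.

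The other secreted proteins once grouped with the binding proteins, 9 genes with the CCN family among them, formed a list of their own. Ccn5 rose in all 6 differentiation comparisons, from 4.59 in hypoxic smooth muscle cultures (SE 0.64, adjusted p = 5.45e-05) to 11.17 in hypoxic chondrocyte cultures (SE 0.31, adjusted p = 2.38e-08). Esm1, a secreted proteoglycan gene, fell in all 6, with -9.09 in hypoxic chondrocyte cultures (SE 0.20, adjusted p = 3.29e-12). With low oxygen Ccn3 was lower in 2 of the 4 culture types, with -4.79 in smooth muscle (SE 0.15, adjusted p = 4.22e-13) and -2.60 in osteoblast cultures (SE 0.21, adjusted p = 1.31e-05).

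The genes whose levels over the 28 libraries were most like those of the members were found by Pearson's r of log2(CPM + 1) among 13189 genes, as a description, since libraries of a group share their condition. For Igfbp6 they were Slc2a1 (r = 0.934), the glucose transporter gene also counted among the hypoxia markers, and Alkbh5 (r = 0.9205). For Igfbp7 they were Map2 (r = 0.994) and Lama2 (r = 0.986), and for Igf1 Lrrc75b (r = 0.982) and Plpp1 (r = 0.980). Igfbp5 was followed by Wwp2 (r = 0.971) and Igfbp2 by Scube1 (r = 0.966), while Igfbp3 (Rasd1, r = 0.892) and Igfbp4 (Cpe, r = 0.893) had less like partners. Among the members themselves the highest values were 0.95 for Igf1 with Igfbp7, 0.89 for Igf1r with Insr and 0.82 for the neighbours Igfbp2 and Igfbp5, and the lowest was -0.40 for Igfbp3 with Igfbp5.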

How the data were processed

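RNA was sequenced from 28 libraries of O9-1 cells in 8 groups, taken from the labels. Per the labels' protocols, polyadenylated RNA was prepared with a stranded kit. The submitters' processing notes name HISAT2 2.0.5, StringTie 1.3.3b, featureCounts 1.5.0-p3 and the build mm10; the annotation and the strand setting are not given in the sources used here. The authors deposited raw read counts per gene for all libraries. They also deposited 10 comparison tables with log2 fold changes and p-values, which were used for gene symbols and for a check: the authors' deposited log2 values had the same sign as the values computed here for 65 of 65 called member values. The tables' 70 further columns of per-library values were not used.

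From the counts, edgeR 4.0.16 (R 4.3.3, limma 3.58.1) gave quasi-likelihood tests with TMM scaling, genes kept by filterByExpr (minimum count 10, minimum total 15) and only the libraries of the groups compared. P-values were adjusted by Benjamini-Hochberg over all genes kept, and a gene was called at adjusted p under 0.05. There were 10 comparisons of the design, 2 of chondrocyte with osteoblast cultures and 3 interaction terms. The tests were checked on simulated data with 200 changed genes: for hypoxic against normoxic osteoblast cultures, with 14533 genes, 64.2% of genes changed by a log2 of 1 and 90% of those changed by 2 were recovered, and for the osteoblast interaction, with 15486 genes, 57.9% and 72.7%. DESeq2 1.42.0 and limma-voom were alternatives, with other scalings and filters, all 28 libraries in 1 fit, a replicate block and each library left out. Lengths came from GENCODE M21 exons on GRCm38, promoters from RefSeq. Intervals and floors cover counting error only.

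All 9 members were described. Of the other genes, each comparison of the design named the called gene with the largest rise and the called gene with the largest fall in each list, among genes with a mean of at least 10 counts in a group, and the likeness search named the 2 genes with the highest r; not all are printed. The promoter rule named further members, of which 2 are printed. The members and lists were chosen with earlier results of these data known. The result of a gene that the naming rule selected from the signalling list is not reported here.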

Additional observations from a re-analysis of the deposited data

Results flagged for a closer look

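Of 36 groups of 4 libraries (9 genes in 4 normoxic groups), 9 had a library far from the other 3 by Dixon's criterion at the 95% level, which chance alone gives in about 1 of 20. Of these, 7 were replicate 4 of the normoxic osteoblast group. It was the highest library of its group for Igf1 (81.1 CPM), Igfbp4 (385 CPM), Igfbp5 (31.0 CPM) and Igfbp7 (267 CPM), and the lowest for Igf1r (134 CPM), Insr (57.3 CPM) and Igfbp6 (64.2 CPM). The chondrocyte markers of that library summed to 1466 CPM against 181 to 198 CPM in the other 3, and their part in the member values was not tested. Replicate 1 of the same group was the lowest for Igfbp3, at 109 CPM. Replicate 4 of the normoxic smooth muscle group was the highest for Igfbp7, at 37.6 CPM.

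The oxygen difference departed from that of proliferating cells in 15 tested values (edgeR's interaction terms). In chondrocyte cultures these were Igf1r (-0.29), Insr (-0.80), Igfbp3 (-2.61) and Igfbp5 (-3.72). In osteoblast cultures they were Igf1 (-2.59), Igfbp3 (-4.91) and Igfbp6 (0.48). In smooth muscle cultures they were Igf1 (-5.36), Igf1r (-1.97), Insr (-1.63), Igfbp3 (-2.83), Igfbp4 (-1.37), Igfbp5 (-6.61), Igfbp6 (1.32) and Igfbp7 (-2.93). The hypoxic smooth muscle libraries held 12.4% of their counts in mitochondrial ribosomal RNA. Leaving out mitochondrial genes gave the same calls in the smooth muscle interaction, 1 higher and 7 lower of 8 tested. Scaling by library totals alone gave 0 higher and 7 lower. The cause of the smooth muscle values was not tested.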

How the results depend on the processing

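RLE size factors and leaving out mitochondrial genes changed no direction or call of the 121 results compared. DESeq2 added 1 call among the results compared, in the osteoblast interaction. It called 5 genes there in place of 3, with Igfbp2 counted among them although its term was not estimable. Requiring at least 10 counts in every library left 5 of 8 calls in the normoxic and 5 of 8 in the hypoxic chondrocyte against proliferating comparison, since genes near 0 in proliferating cells were no longer tested. With all 28 libraries in 1 fit 9 calls ended, 2 of the 4 in the chondrocyte interaction among them, and without a filter 4 ended; they are named beside their results, and the cause was not tested. By counts not divided by length Igfbp4 led 4 groups in place of 1.

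Replicate numbers did not pair the libraries (residual r from -0.176 to 0.081, over 0.1 throughout in 0 of 12 comparisons). The replicate block uses only the numbers that the groups share, so that between oxygen levels it also leaves out replicate 4 of each normoxic group. It gave 7 calls in place of 4 for oxygen in osteoblast cultures and 5 in place of 3 in the osteoblast interaction. Leaving out normoxic osteoblast replicate 4 with no block also gave 7 and 5. With any library left out, these ranged from 3 to 7 and from 1 to 5. For oxygen in smooth muscle cultures the block gave 1 higher and 6 lower genes in place of 2 and 6. The block fit turned Igfbp6 in normoxic chondrocyte against proliferating cultures to -0.0026, Igfbp5 in the osteoblast oxygen comparison to 3.42 and interaction to 0.64 (3.39 and 0.42 without that library and with no block), and Igfbp7 in that interaction to -0.018.

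Scaling by library totals alone turned 11 values: Igfbp6 to -0.35 in normoxic chondrocyte, -0.10 in hypoxic chondrocyte and -0.74 in hypoxic smooth muscle against proliferating cultures, to -0.0071 in normoxic chondrocyte against osteoblast cultures and to -0.020 in the smooth muscle interaction; Igf1r in hypoxic chondrocyte (-0.26) and Igfbp7 in hypoxic smooth muscle (-1.18) against proliferating cultures; Igf1 (-0.057) and Insr (-0.013) for oxygen in chondrocyte and Igfbp3 (-0.98) in smooth muscle cultures; and Igfbp7 in the osteoblast interaction (-0.00024). In hypoxic against normoxic smooth muscle cultures it gave 2002 higher and 10831 lower genes in place of 5277 and 5994.

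Without a filter, Igfbp6 in normoxic chondrocyte (-0.026) and Igfbp7 in hypoxic smooth muscle against proliferating cultures (-0.0069) turned, and with all 28 libraries in 1 fit the same values were -0.069 and -0.042. Limma-voom gave -0.0043 for that Igfbp6 value, 2.02 for Igfbp5 in the osteoblast oxygen comparison and -0.011 for Igfbp7 in the osteoblast interaction.

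Leaving out each library turned 19 values and ended 29 calls. The ranges of those that turned were -0.055 to 0.10 (Igfbp6, normoxic chondrocyte against proliferating), -0.065 to 0.26 (Igfbp7, hypoxic smooth muscle against proliferating), -0.028 to 0.37 (Igfbp7, oxygen in proliferating cells), -0.080 to 0.15, -0.0018 to 0.12 and -0.037 to 0.016 (Igf1, Insr and Igfbp7, oxygen in chondrocyte cultures), -0.63 to 3.39 (Igfbp5, oxygen in osteoblast cultures), -0.10 to 0.020 (Igfbp6, hypoxic chondrocyte against osteoblast), -0.42 to 0.016 (Igfbp7, chondrocyte interaction), and -3.62 to 0.42 and -0.089 to 0.34 (Igfbp5 and Igfbp7, osteoblast interaction). For the values that turned, the cause was not tested. Low counts limit Igfbp2 in every group and Igf1 and Igfbp5 in proliferating cells and in hypoxic smooth muscle cultures.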
